A study of Mus musculus with 68 samples.

Results

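Arid5a, Zc3h12a, Zfp36, Zfp36l1, Zfp36l2, Mex3b, Rc3h1 and Elavl1 encode RNA-binding proteins that set how long inflammatory mRNAs last. These 8 genes were taken by name, with earlier results of these data known. All 8 were listed in both sets of tables, among 13197 genes in the founder tables, 12803 in the F1 tables and 13378 in all. The question was at what level each of them was transcribed in every genotype, how that level moved with endoplasmic reticulum (ER) stress, and whether the strains in which they moved most were those in which the cytokine genes Lif and Cxcl1 moved most.

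Primary mouse embryonic fibroblasts (MEFs) of 13 genotypes were sequenced after 4 h in 2 ug/ml tunicamycin (TM), which blocks protein glycosylation and so loads the ER with misfolded protein, or after 4 h in DMSO alone. The 8 founder strains were 129S1Sv/ImJ (129), A/J (A), C57BL/6J (B6), CAST/EiJ (CAST), NOD/ShiLtJ (NOD), NZO/H1LtJ (NZO), PWK/PhJ (PWK) and WSB/EiJ (WSB), and the 5 F1 crosses had a B6 mother and a 129, CAST, NOD, NZO or WSB father (x129, xCAST, xNOD, xNZO, xWSB). Each genotype was a mix of cells from several female embryos of a single litter, so a difference between genotypes is a difference between cell pools. Each genotype had 2 or 3 control and 2 or 3 TM libraries, 40 founder and 28 F1 libraries in total, and nothing states that replicates came from separate litters. The p-values below therefore measure the spread between these libraries, which may be technical. The exception is the correlations over the 8 founder strains, whose p-values come from shuffling strain means.

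An inflammatory mRNA is usually short-lived. Its 3′ untranslated region (3′UTR) carries AU-rich elements, which tristetraprolin (Zfp36) and its paralogs Zfp36l1 and Zfp36l2 bind to bring in the deadenylase complex, or stem-loops, which Regnase-1 (Zc3h12a) cuts and roquin (Rc3h1) uses to recruit decay factors. HuR (Elavl1) binds AU-rich elements and protects the mRNA, Arid5a binds the 3′UTR of cytokine mRNAs such as Il6 and counters Regnase-1, and Mex3b is a KH-domain RNA-binding protein with a ubiquitin ligase RING domain. Several of these regulators bind their own or each other's mRNA.

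The values were reads per gene divided by a library size scaled by TMM, called normalised signal here, with no division by gene length, so levels were compared between genotypes and treatments and never between genes. Whole reads could be recovered for 38 of the 40 founder libraries, which held 7091923 to 21530282 reads on genes, and for all 28 F1 libraries, which held 6442976 to 29528457. All 9 fibroblast markers were listed in each set and summed to 16930 to 54700 in founder libraries, whereas the 12 of 14 myeloid markers listed summed to 7.34 to 34.5 and none of the 6 lymphocyte markers was listed. The summed myeloid markers ranged from 8.97 to 34.5 in founder controls and from 7.34 to 30.4 with TM. Of the 12, 5 were called lower with TM (3 by edgeR), against 5.41% of all genes. Over the F1 crosses 0 of the 8 listed were called (1 lower by edgeR). The 4 epithelial markers listed summed to 32.0 to 132 in founder controls, and the 5 endothelial markers to 3.13 to 19.85. The 2 WSB controls differed widely, at 8.97 and 34.5 for myeloid, 3.24 and 19.85 for endothelial and 36.9 and 103 for epithelial markers. In F1 controls the 3 epithelial markers listed summed to 3.39 to 63.2. The part of such cells in the results was not tested. The 5 ER stress genes used to check the treatment were called higher with TM in both sets. In RNA from whole cultures, fewer cells of a type and less RNA per cell cannot be told apart.

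The AU-rich heptamer TATTTAT, the core of the tristetraprolin site, was searched on the sense strand of 1 annotated 3′UTR per gene (GRCm38). It lay in 28.5% of 12809 coding genes of the founder tables. Of the 8 regulators, 5 held it and 3 did not, and the sites below are shown because the genes without it were Arid5a, Zc3h12a and Mex3b, the 3 that rose with TM, while the reference cytokines Lif and Cxcl1, which also rose, held 5 and 6 copies. The number of copies was 3 in Zfp36, Zfp36l1 and Zfp36l2, 2 in Rc3h1 and 8 in Elavl1, where copies overlapped. Capitals mark the heptamer in 28 bases of each 3′UTR, written 5′ to 3′ on the strand of the gene.
Elavl1, chr8:4285776-4285803, minus strand: ttTATTTATTTATTTATtttTATTTATt
Cxcl1, chr5:90892612-90892639, plus strand: ttTATTTATgTATTTATTTATtccacaa
Zfp36, chr7:28376951-28376978, minus strand: atgacgacttTATTTATtgtattaagat
Zfp36l1, chr12:80108167-80108194, minus strand: actgttggatTATTTATtttagaaattc
Zfp36l2, chr17:84184914-84184941, minus strand: ctatttaactTATTTATtatcttgtgaa
Rc3h1, chr1:160970044-160970071, plus strand: ctttactcatTATTTATtgagatgagga
Lif, chr11:4272040-4272067, plus strand: aaggggccttTATTTATtatttaaaact

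Among coding genes with a 3′UTR from 20% shorter to 25% longer than the gene's own, the heptamer lay in 22.1% for Arid5a (868 bases), 22.2% for Zc3h12a (856 bases) and 31.9% for Mex3b (1306 bases), so its absence was the common state at those lengths. It lay in 73.4% for Rc3h1, whose 3′UTR was the longest of the 8 at 7181 bases. Across all genes it was in 38.3% of the 749 called higher with TM, 26.5% of the 694 called lower and 28% of those not called in the founders. A match is a description of the letters and not a bound site.

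A gene was called where the limma test gave a Benjamini-Hochberg adjusted p under 0.01 over all genes tested and a change of at least 1.5-fold. Averaged over the 8 founder strains, 3 of the 8 regulators were called higher with TM and 0 lower, against 6.04% of 13197 genes higher and 5.41% lower. The same 3, Arid5a, Mex3b and Zc3h12a, were called higher over the 5 F1 crosses, and 0 lower, against 4.95% and 5.54% of 12803 genes. edgeR on recovered reads also called 3 higher and 0 lower in each set. By its own test, the paper names Arid5a and Mex3b among genes higher with TM in all 8 strains of these data. The count of 3 of 8 is thus a description and not a test of the set. For these 3 genes every TM library lay above every control library of its genotype in 8 of 8 strains and 5 of 5 crosses, which held for 4.54% of 11918 and 4.86% of 11913 genes tested throughout. The authors had kept only libraries that grouped with their condition within a strain. The libraries were thus partly chosen for such separation, for all genes alike, and p-values within genotypes do not allow for that choice. The other 5 regulators had mean log2 changes from -0.17 to 0.27 in the founders and from -0.32 to 0.19 in the F1 crosses.

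**Figure D1:**
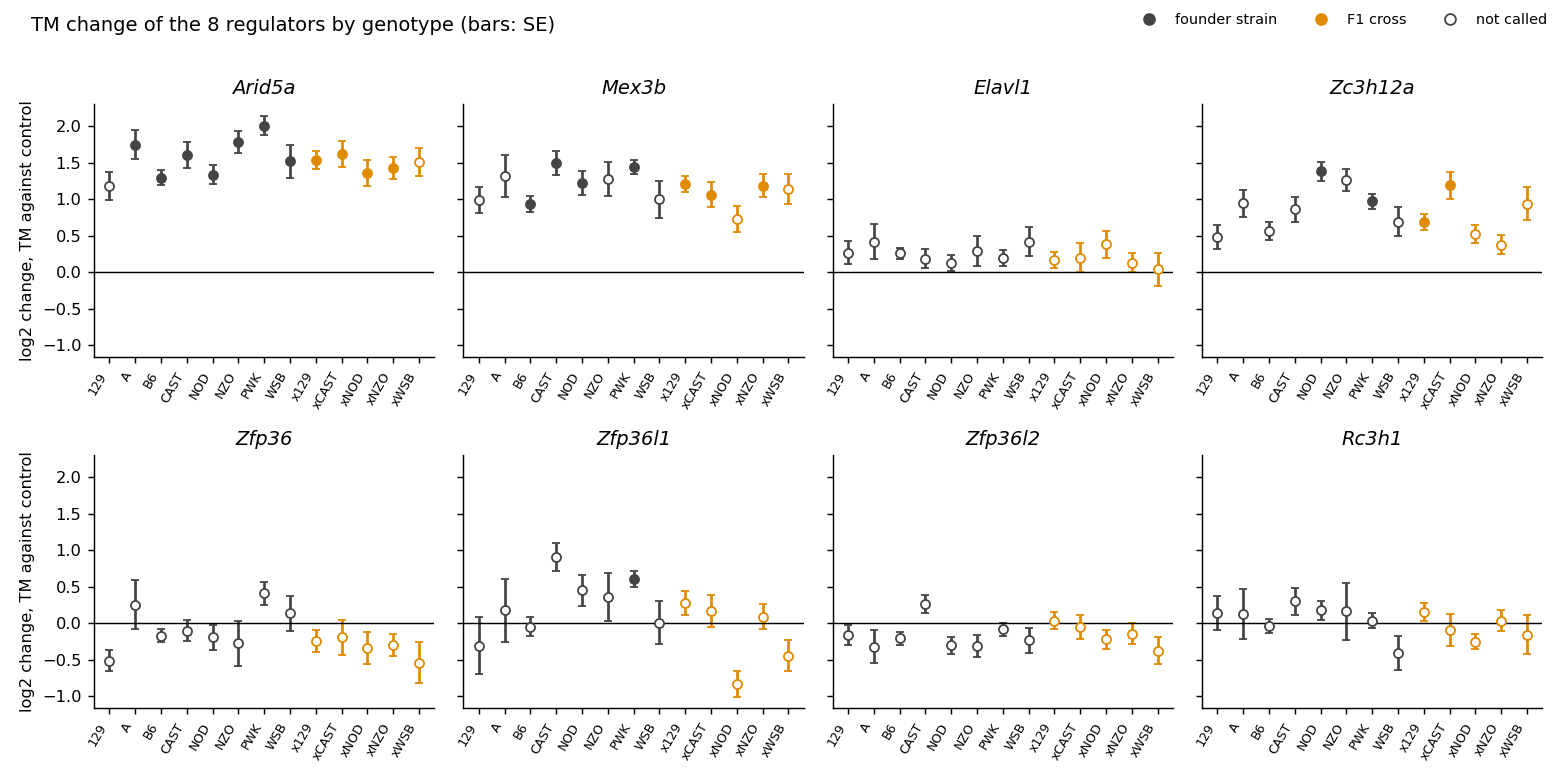
Log2 change with TM against control (y axis) of each regulator in the 8 founder strains (grey) and 5 F1 crosses (orange), with bars for the standard error, filled where the gene was called within that genotype. Arid5a, Mex3b and Zc3h12a lay above 0 in all 13 genotypes and Elavl1 lay above 0 by less, from 0.04 to 0.42.

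Arid5a (ENSMUSG00000037447, chr1:36307733-36324029), the stabiliser of cytokine mRNAs, rose most of the 8. In PWK its signal was 12.95, 9.52 and 9.24 in the controls and 45.02, 41.2 and 41.1 with TM. In CAST, where the gene was lowest, it was 3.52 and 3.62 in the controls and 10.5 and 11.7 with TM, so that the CAST TM libraries did not reach the controls of B6, at 15.05 and 15.7. In 129, where the change was smallest, it was 16.8 and 13.9 in the controls and 29.7, 41.0 and 34.7 with TM. Control and TM libraries were apart in each of these strains.

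The mean change of Arid5a was 2.95-fold over the founders (log2 1.56, SE 0.058, adjusted p = 1.2e-19) and 2.81-fold over the F1 crosses (log2 1.49, SE 0.072, adjusted p = 6.8e-14). Within genotypes the log2 change ran from 1.18 in 129 to 2.01 in PWK and, more narrowly, from 1.36 in xNOD to 1.63 in xCAST. Arid5a was called in 7 of 8 strains and 4 of 5 crosses, the exceptions being 129 (adjusted p = 0.036) and xWSB (adjusted p = 0.013). The number of strains called was 6 to 8 when 1 library was left out. In A the call was lost without any 1 of its 6 libraries (adjusted p 0.0175 to 0.0496), while the change stayed between 1.67 and 1.84.

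Mex3b (ENSMUSG00000057706, chr7:82867333-82871515) came next. In CAST it was 18.0 and 24.5 in the controls and 63.6 and 55.4 with TM, and in B6 it was 23.9 in both controls and 50.5 and 41.8 with TM. In NZO, at the other end, it was 6.96 and 5.62 in the controls and 15.4, 18.9 and 12.3 with TM. NZO TM libraries thus lay below the B6 controls, although control and TM libraries were apart within every genotype. The mean change was 2.32-fold in the founders (log2 1.21, SE 0.080, adjusted p = 1.6e-13) and 2.10-fold in the F1 crosses (log2 1.07, SE 0.073, adjusted p = 4.2e-11). It was called in 4 of 8 strains (B6, CAST, NOD and PWK) and 3 of 5 crosses (x129, xCAST and xNZO), with log2 changes of 0.94 to 1.49 in strains and 0.73 to 1.21 in crosses.

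The paralogs of Mex3b, which share its KH and RING domains, did not follow it. Mex3a and Mex3d were called lower over the founders, at -0.77 (SE 0.063, adjusted p = 1.8e-11) and -0.71 (SE 0.051, adjusted p = 8.0e-13) on the log2 scale, and Mex3c was at 0.09 (adjusted p = 0.26). Over the F1 crosses Mex3a was called lower at -0.68, and Mex3d, at -0.52 and 0.697-fold, stayed within the fold threshold.

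Zc3h12a (Regnase-1, ENSMUSG00000042677, chr4:125118423-125127840) was the only 1 of the 5 decay-promoting regulators called over the founders. In NOD its signal was 18.8 and 22.1 in the controls and 58.9, 50.7 and 51.1 with TM. In 129 it was 31.5 and 29.1 in the controls and 36.6, 46.2 and 44.5 with TM. PWK held the highest level in both conditions, at 36.0, 32.3 and 30.2 in the controls and 60.4, 64.2 and 69.3 with TM. The NOD controls were lower than those of 129 and the NOD TM libraries higher.

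The mean change of Zc3h12a was 1.86-fold in the founders (log2 0.90, SE 0.053, adjusted p = 1.1e-14) and 1.68-fold in the F1 crosses (log2 0.74, SE 0.073, adjusted p = 1.7e-08). It was called within 2 of 8 strains (NOD and PWK) and 2 of 5 crosses (x129 and xCAST). In B6 it passed the p threshold (adjusted p = 0.0025) at 1.48-fold, just under the fold threshold. The changes in the crosses ran from 1.30-fold in xNZO, with controls of 16.2, 16.4 and 13.2 and TM libraries of 20.1, 18.7 and 20.7, to 2.28-fold in xCAST, with controls of 19.2 and 15.6 and TM libraries of 43.3, 33.5 and 42.9.

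**Figure D2:**
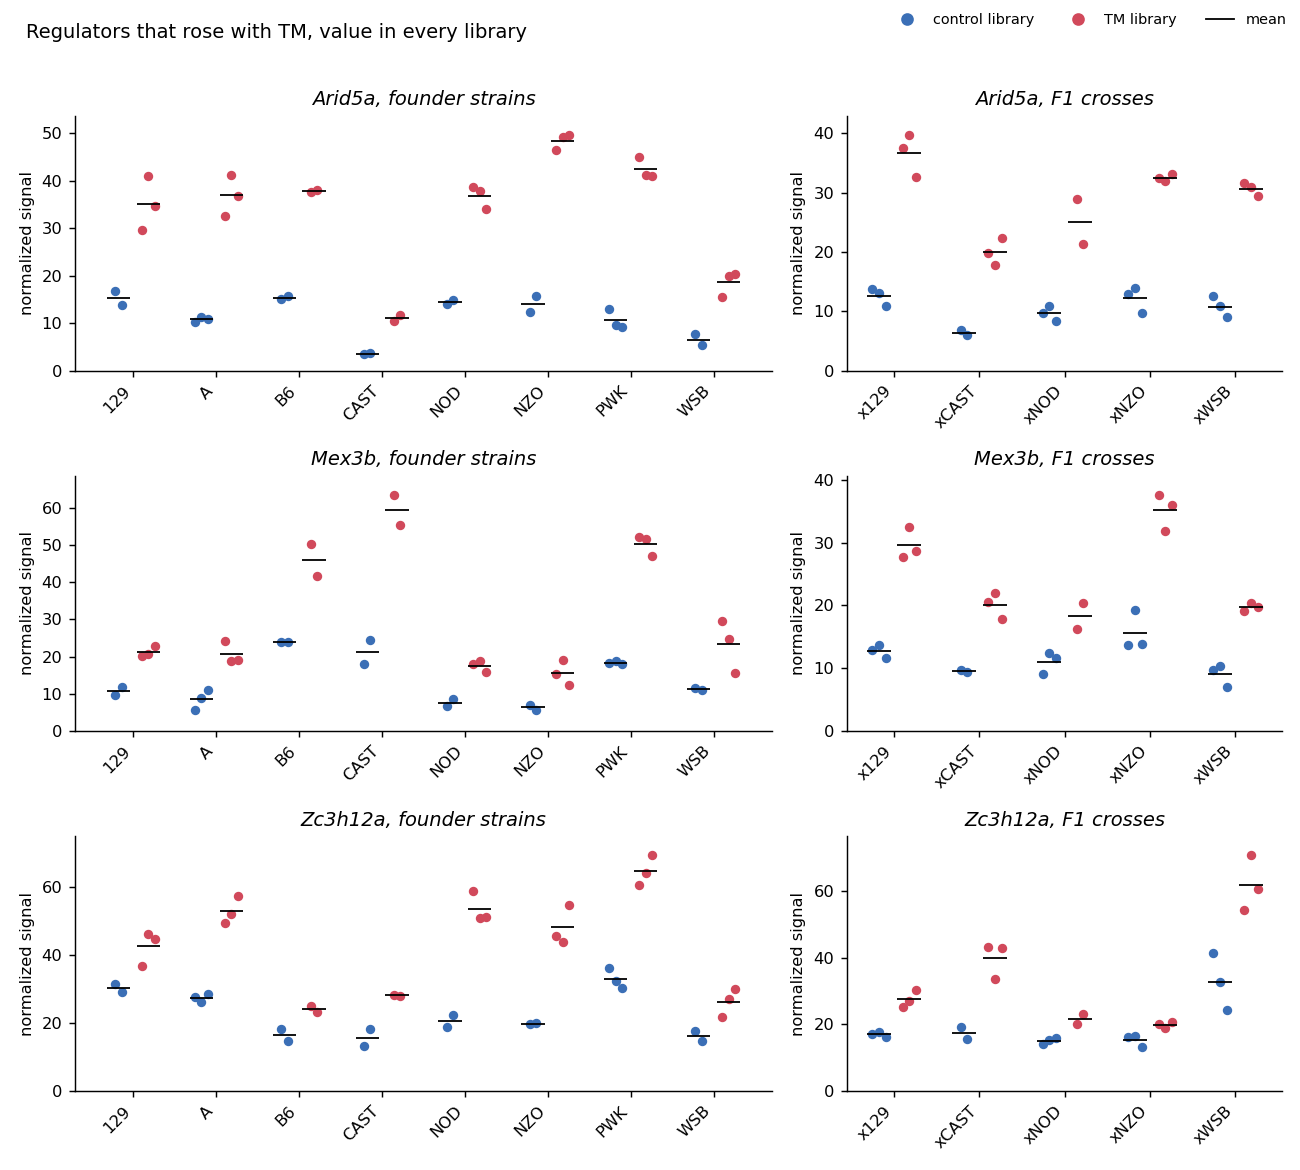
Normalised signal (y axis) of Arid5a, Mex3b and Zc3h12a in every control (blue) and TM (red) library of the founder strains (left) and F1 crosses (right), with a line at each group mean. The TM points lie above the control points in each of the 13 genotypes, from control levels that differed by up to 4.30 times between strains for Arid5a.

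Within genotypes the 8 regulators had 14 calls over the 8 strains and 9 over the 5 crosses, all higher with TM and none lower. The share of all genes called higher was 0.315% in 129, 0.346% in A, 5.04% in B6, 2.54% in CAST, 1.45% in NOD, 0.32% in NZO, 6.36% in PWK and 2.85% in WSB, and it was 4.88% in x129, 2.52% in xCAST, 3.69% in xNOD, 1.44% in xNZO and 0.185% in xWSB. The share called lower was 0.00787% in 129, 0.00786% in A, 3.22% in B6, 0.478% in CAST, 0.165% in NOD, 0.0078% in NZO, 4.3% in PWK, 4.2% in WSB, 1.36% in x129, 1.2% in xCAST, 4.6% in xNOD, 0.152% in xNZO and 0.0161% in xWSB. A missing call in 129, A, NZO or xWSB therefore came where at most 0.346% of all genes were called higher, and the count of strains called is not a count of strains in which a gene responded. Without a trend in the prior variance, the calls fell to 5 in strains and 4 in crosses.

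Tristetraprolin, Zfp36 (ENSMUSG00000044786, chr7:28376784-28380253), the AU-rich element binder that starts deadenylation, was not called in any genotype. Its mean log2 change was -0.06 over the founders (SE 0.10, adjusted p = 0.66) and -0.32 over the F1 crosses (SE 0.12, adjusted p = 0.025). In 129 it was 67.6 and 64.4 in the controls and 44.7, 48.4 and 45.9 with TM. In PWK it was 56.0, 52.5 and 53.4 in the controls and 83.2, 85.2 and 52.0 with TM. The 129 groups were apart, with TM lower, and the PWK groups overlapped through a single TM library. All TM libraries lay below the controls in 2 strains, 129 and B6, which 42.9% of genes did in at least as many strains.

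The third TM replicate stood apart for Zfp36. It was the lowest of the 3 TM libraries in 9 of the 10 genotypes with 3 of them, which 5.87% of 12622 genes matched or exceeded. In NZO it was 37.2 beside 73.2 and 71.6, and in WSB 46.5 beside 75.5 and 88.2. With TM replicate 3 of every genotype left out, a choice made after seeing the data, the mean change of Zfp36 was 0.10 (adjusted p = 0.32) in the founders, the opposite sign, and -0.18 (adjusted p = 0.17) in the F1 crosses. What set these libraries apart was not tested. The same number also marked the lowest TM library of Elavl1 in 10 of 10 genotypes (1.85% of genes), of Cxcl1 in 7 (16.8% in at least as many), of Zfp36l1 in 6 (24%), of Mex3b and Zfp36l2 in 5 (32.6%), of Arid5a and Rc3h1 in 4 (45.3%), of Lif in 3 (59.8%) and of Zc3h12a in 0.

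Zfp36l1 (ENSMUSG00000021127, chr12:80107754-80113013), a tristetraprolin paralog, had a mean log2 change of 0.27 (SE 0.14, adjusted p = 0.10) in the founders and -0.15 (SE 0.097, adjusted p = 0.22) in the F1 crosses. It rose in PWK, from 24.6, 22.4 and 21.9 to 31.4, 39.9 and 34.1 (1.52-fold, adjusted p = 0.0014). In CAST it was 16.8 and 25.5 in the controls and 36.7 and 41.0 with TM (1.87-fold, adjusted p = 0.016), and in xNOD it was 16.0, 15.8 and 22.3 in the controls and 9.59 and 10.4 with TM (0.564-fold, adjusted p = 0.018). In xWSB it was 13.7, 16.6 and 15.8 in the controls and 13.1, 12.1 and 9.0028 with TM (0.735-fold, adjusted p = 0.43). The groups were apart in these 4 genotypes, TM being higher in CAST and PWK and lower in xNOD and xWSB, and overlapped in the others. Among all genes, 38.6% had every TM library above the controls in at least 2 strains, and 27.4% had them below in at least 2 crosses. The PWK call was lost without control replicate 3 (adjusted p = 0.0077, 0.57 on the log2 scale) or TM replicate 2 (adjusted p = 0.011) and with edgeR, and a second strain was called when CAST control replicate 1, CAST control replicate 3, CAST TM replicate 2, NOD control replicate 3 or NZO TM replicate 3 was left out.

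Zfp36l2 (ENSMUSG00000045817, chr17:84183931-84187947), the other paralog, was at 0.889-fold in the founders (log2 -0.17, SE 0.054, adjusted p = 0.0093), past the p threshold and within the fold threshold, and at 0.902-fold in the F1 crosses (adjusted p = 0.081). Its log2 change was below 0 in 7 of 8 strains and it was called in 0 by limma and by edgeR, with an unadjusted p under 0.05 in 3. CAST was the exception in direction, at 262 and 268 in the controls and 339 and 300 with TM, while A was at 263, 325 and 349 in the controls and 303, 203 and 248 with TM. The CAST groups were apart and the A groups overlapped. All TM libraries lay below the controls in 3 strains, B6, NOD and NZO, which 31.6% of genes did in at least as many. They lay above the controls in CAST alone, and 54.8% of genes did so in at least 1 strain. Among the crosses they lay below in 1, xWSB, and 47.3% of genes did so in at least 1 cross.

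Rc3h1 (roquin-1, ENSMUSG00000040423, chr1:160906418-160974978) showed no change that the libraries could resolve, at 0.06 (SE 0.11, adjusted p = 0.65) in the founders and -0.06 (SE 0.097, adjusted p = 0.62) in the F1 crosses on the log2 scale. It was called in 0 genotypes by limma and by edgeR, with an unadjusted p under 0.05 in 0 strains and 1 cross. In NZO it was 58.2 and 50.7 in the controls and 79.0, 82.9 and 34.4 with TM. In A it was 30.6, 60.6 and 58.2 in the controls and 77.1, 40.5 and 45.3 with TM. NZO TM replicate 3 and A control replicate 1 were the lowest libraries of their groups for Zfp36, Zfp36l1, Rc3h1 and Elavl1 alike. Both also stood apart from their groups in read counts across genes. The chi-square per degree of freedom was 62.2 and 69.05 for NZO TM replicate 3 against the others, which gave 2.06 between them. It was 90.45 and 109.8 for A control replicate 1 against the others, which gave 1.88 between them.

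Elavl1 (HuR, ENSMUSG00000040028, chr8:4285382-4325413), the binder that shields AU-rich mRNAs, was above its controls in mean in all 13 genotypes and was called in 0 by limma and by edgeR, with an unadjusted p under 0.05 in 1 strain and 0 crosses. In B6 it was 90.6 and 90.2 in the controls and 107 and 109 with TM, and in WSB 84.8 and 113 in the controls and 157, 136 and 105 with TM. The B6 groups were apart and the WSB groups overlapped, as did those of 5 of 8 strains and 5 of 5 crosses. All TM libraries lay above the controls in 3 strains, which 29.4% of genes did in at least as many. Over the founders it was 1.21-fold higher (log2 0.27, SE 0.065, adjusted p = 0.00081), under the fold threshold, and over the F1 crosses 1.14-fold (adjusted p = 0.085). With TM replicate 3 left out everywhere, a choice made after seeing the data, it was 1.30-fold and 1.24-fold. That replicate was the lowest TM library in all 10 genotypes with 3 of them. Leaving it out had to raise the change in those genotypes, so the larger values are not further evidence of a rise.

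**Figure D3:**
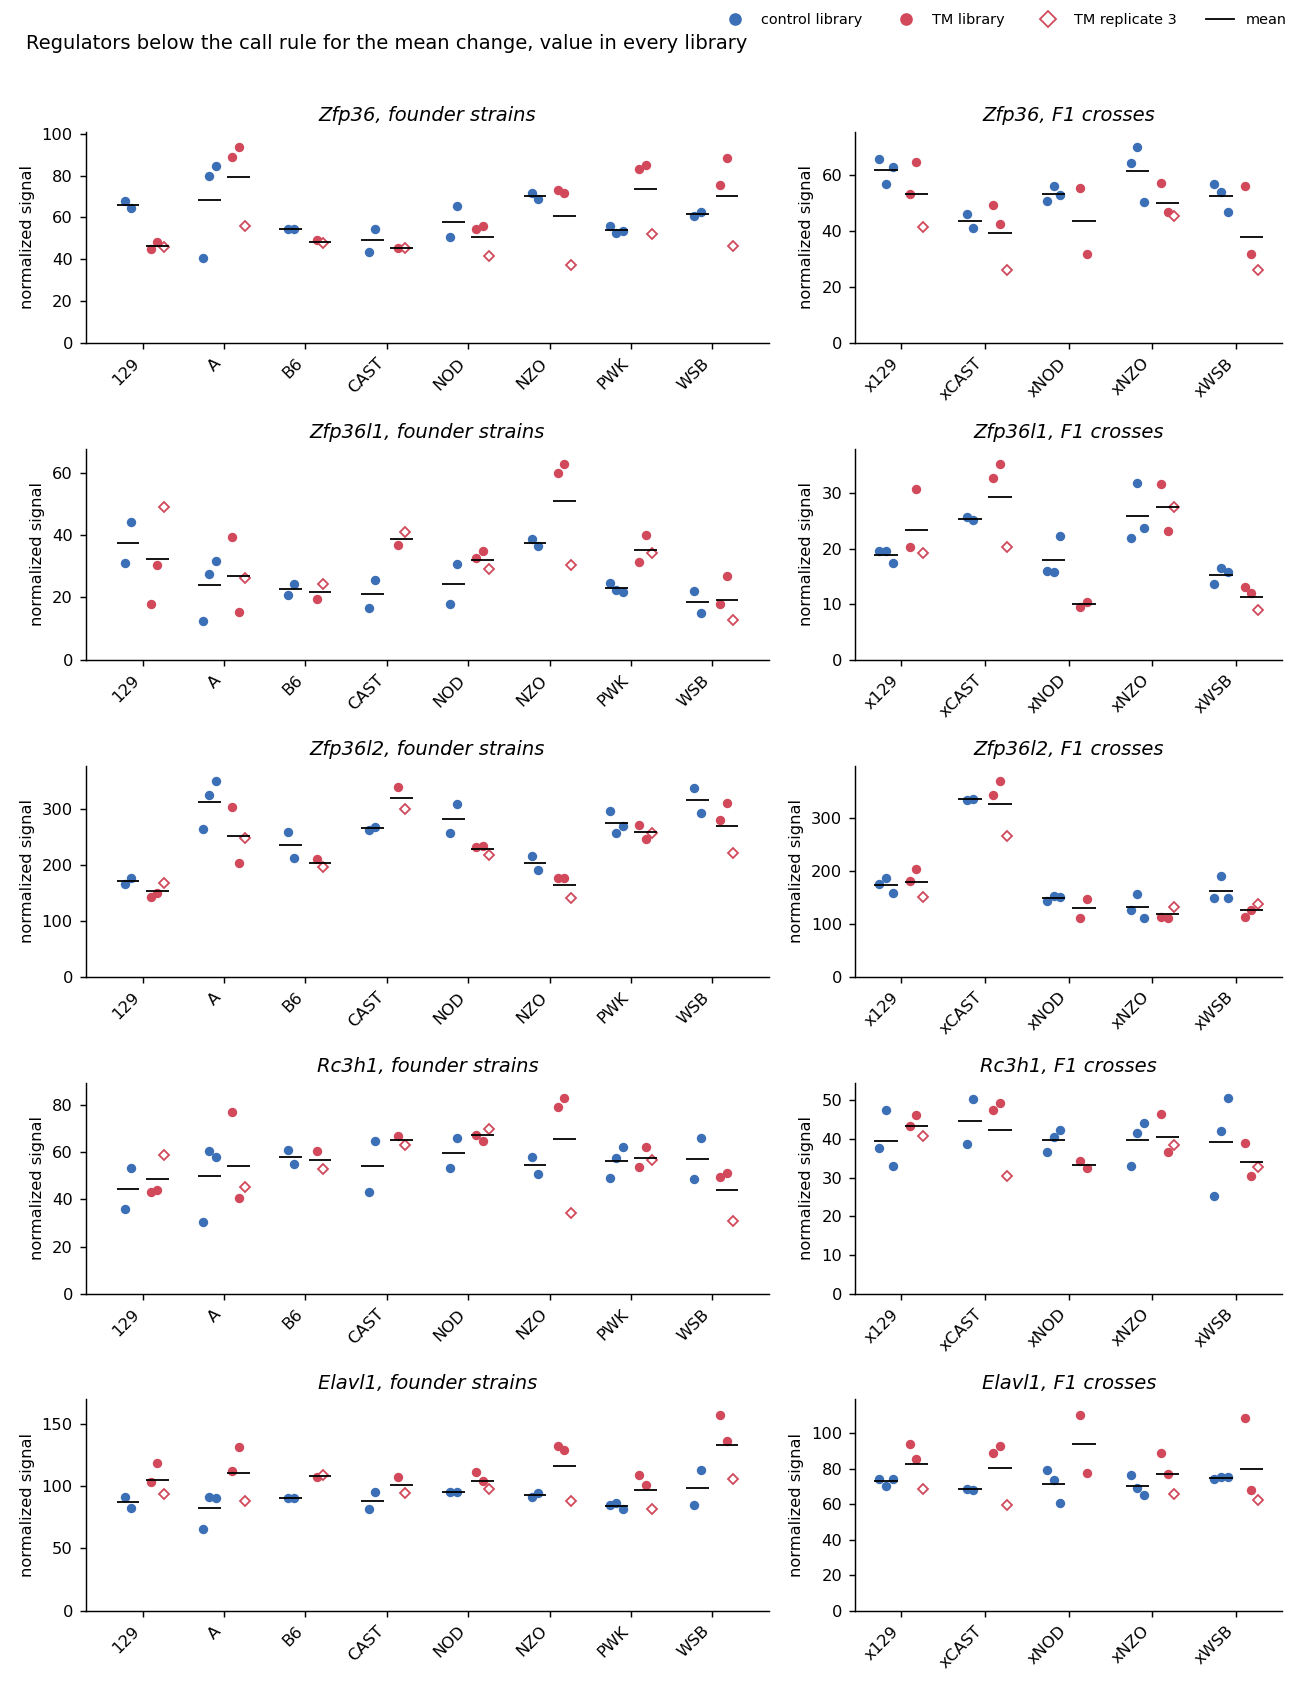
Normalised signal (y axis) of Zfp36, Zfp36l1, Zfp36l2, Rc3h1 and Elavl1 in every control (blue) and TM (red) library of the founder strains (left) and F1 crosses (right), with a line at each group mean and an open diamond for TM replicate 3. The diamond is the lowest of 3 TM libraries in 9 of 10 genotypes for Zfp36 and in 10 of 10 for Elavl1.

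The size of the TM change was next compared between genotypes. With each TM library expressed relative to the median of the control libraries of the same strain, Zc3h12a (adjusted p = 0.0014) and Arid5a (adjusted p = 0.0015) were 2 of the 8 regulators past the 0.01 threshold in the moderated F test over 8 strains, as were 3.46% of 13197 genes. The strain means spanned 0.90 and 0.97 on the log2 scale. That test holds the median control fixed and leaves out the spread of the controls. In the strain by treatment interaction, which keeps it, adjusted p was 0.26 for Zc3h12a and 0.74 for Arid5a, 0 of the 8 passed, with an unadjusted p of 0.0018 and 0.012 for these 2 and above 0.05 for the other 6, and 0.174% of all genes passed. With TM replicate 3 left out, which leaves 1 TM library each in B6 and CAST, the F test also passed 0 (adjusted p = 0.078 and 0.16). Lif and Cxcl1 differed between strains by both the F test (adjusted p = 8.6e-07 and 1.5e-06) and the interaction (3.0e-05 and 5.6e-07).

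Among the F1 crosses 0 regulators passed the F test of the TM change, against 0.531% of 12803 genes, with an unadjusted p under 0.05 for Zc3h12a (adjusted p = 0.023), Mex3b (adjusted p = 0.062) and Zfp36l1 (adjusted p = 0.084). The interaction likewise passed 0, against 0.0547% of genes, with an unadjusted p under 0.05 for Zc3h12a (0.015) and Zfp36l1 (0.0076).

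The basal level differed between strains for 4 of the 8 regulators, against 35.8% of 13169 genes. Arid5a (adjusted p = 5.0e-06) ranked CAST lowest at 3.57 ± 0.073 (SD, n = 2), WSB next at 6.49 ± 1.7 and PWK and A at 10.6 ± 2.1 and 10.9 ± 0.49 (n = 3), and NZO, NOD, 129 and B6 were at 14.1 to 15.4 with overlapping libraries between neighbours. With TM the same gene ran from 11.1 in CAST and 18.6 in WSB to 48.5 in NZO, again with CAST and WSB each apart from all others, and PWK, like these a wild-derived strain, was next to the top at 42.4. Mex3b (adjusted p = 3.6e-05) fell into a low group of NZO, NOD, A, 129 and WSB, at 6.29 to 11.2, and a high group of PWK, CAST and B6, at 18.4 to 23.9, with the only gap between neighbours at that point. The gap stood at the same place with TM, with 15.6 to 23.3 below it and 46.1 to 59.5 above it, and a further gap set CAST above the rest.

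Zc3h12a (adjusted p = 8.2e-05) was lowest in CAST, WSB and B6, at 15.6 to 16.3 with overlapping libraries, and highest in 129 and PWK, at 30.3 and 32.8. Zfp36l2 (adjusted p = 0.0011) was lowest in 129 at 171 ± 7.4 (SD, n = 2), apart from its neighbour NZO at 203 ± 18 (n = 2), and highest in A and WSB, at 313 and 315. Zfp36, Zfp36l1, Rc3h1 and Elavl1 had adjusted p of 0.49, 0.14, 0.79 and 0.68. The value for Zfp36 turned on A control replicate 1, which read 40.4 beside 79.7 and 84.6, and without that library adjusted p was 0.00097.

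In the F1 controls 2 regulators differed between crosses, against 21.4% of 12787 genes. Zfp36l2 (adjusted p = 8.4e-05) was 334 and 335 in xCAST and 111 to 190 in the libraries of the other 4 crosses, and it stayed highest in xCAST with TM at 344, 369 and 266. Zc3h12a (adjusted p = 0.00098) was 41.4, 32.8 and 24.2 in xWSB, apart from 13.2 to 19.2 elsewhere. Arid5a was lowest in xCAST, at 6.83 and 5.98, and just missed the threshold (adjusted p = 0.012), as did Zfp36l1 (adjusted p = 0.011). Without xNZO control replicate 3, 4 regulators passed, with Arid5a at 0.0037 and Zfp36 at 0.0079. Founder and F1 values were normalised apart, so a cross was not set against its parents.

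Agreement with the Lif and Cxcl1 changes was measured over the 8 founder strains, with 1 mean log2 change per strain and an exact two-sided permutation test. Both axes come from the same libraries. Lif ranged from 1.15 in 129 to 3.10 in PWK and Cxcl1 from 1.89 in 129 to 5.21 in PWK, so the same strains held both ends. In 129 Cxcl1 was 12.8 and 13.5 in the controls and 49.4, 44.6 and 53.2 with TM, and in PWK it was 3.73, 3.94 and 3.00 in the controls and 146, 145 and 114 with TM. The 129 controls were the highest of any strain for Cxcl1.

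Of 16 relations 0 passed after adjustment over all genes (adjusted p from 0.998 to 1), as did 0% of 13196 genes for Lif and 0% for Cxcl1. An unadjusted permutation p under 0.05 was reached by 4 of the 16, against 3.3% of genes for Lif and 3.05% for Cxcl1, and those 4 paired Arid5a and Zfp36 with each cytokine. The Lif and Cxcl1 changes were themselves related over the strains, with r = 0.77 (exact permutation p = 0.023) and rho = 0.43 (p = 0.30). The 4 relations are therefore not independent of each other. Arid5a followed Lif with r = 0.73 (exact permutation p = 0.040) and rho = 0.83 (p = 0.015), and r was 0.89 without 129 and CAST, the strains farthest from the median Lif change. Arid5a followed Cxcl1 with r = 0.72 (exact permutation p = 0.029) and rho = 0.55 (p = 0.17), but r was 0.24 without 129 and PWK, so that relation rested on those 2 strains.

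Zfp36, whose mean change was not called, was related to Cxcl1 with r = 0.79 (exact permutation p = 0.0093) and rho = 0.81 (p = 0.022), and r was 0.41 without 129 and PWK. Its relation to Lif had r = 0.74 (exact permutation p = 0.035), rho = 0.57 (p = 0.15) and r = 0.65 without 129 and CAST. With 129 alone left out, none of the 4 kept an unadjusted p under 0.05, with r of 0.59 and 0.65 for Arid5a and 0.56 and 0.72 for Zfp36 against Lif and Cxcl1. Zfp36 was highest in PWK at 0.41, A at 0.25 and WSB at 0.14 and lowest in 129 at -0.51.

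Mex3b and Zc3h12a, which rose in mean, did not reach an unadjusted p under 0.05 with either cytokine. For Mex3b r was 0.23 with Lif and 0.52 with Cxcl1 (exact permutation p = 0.57 and 0.18, rho = 0.33 and 0.52), and 0.53 and 0.07 without the 2 farthest strains. For Zc3h12a r was 0.36 with Lif and 0.32 with Cxcl1 (exact permutation p = 0.38 and 0.47, rho = 0.50 and 0), and it turned to -0.22 and -0.81 without the 2 farthest strains. NOD and NZO had the largest Zc3h12a changes, at 1.39 and 1.27, and their Cxcl1 changes, at 3.77 and 4.14, were below those of A, B6, CAST and WSB. The Cxcl1 controls of B6, CAST and WSB, however, were at 0.506 to 0.882, near the filter value of 0.5. With TM the mean Cxcl1 signal was 53.6 in NOD and 53.2 in NZO. It was 14.1 in B6, 21.6 in CAST, 20.2 in WSB and 73.8 in A. The other 4 regulators had r from -0.39 to 0.29 with Lif and from -0.19 to 0.64 with Cxcl1, and unadjusted p above 0.05.

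**Figure D4:**
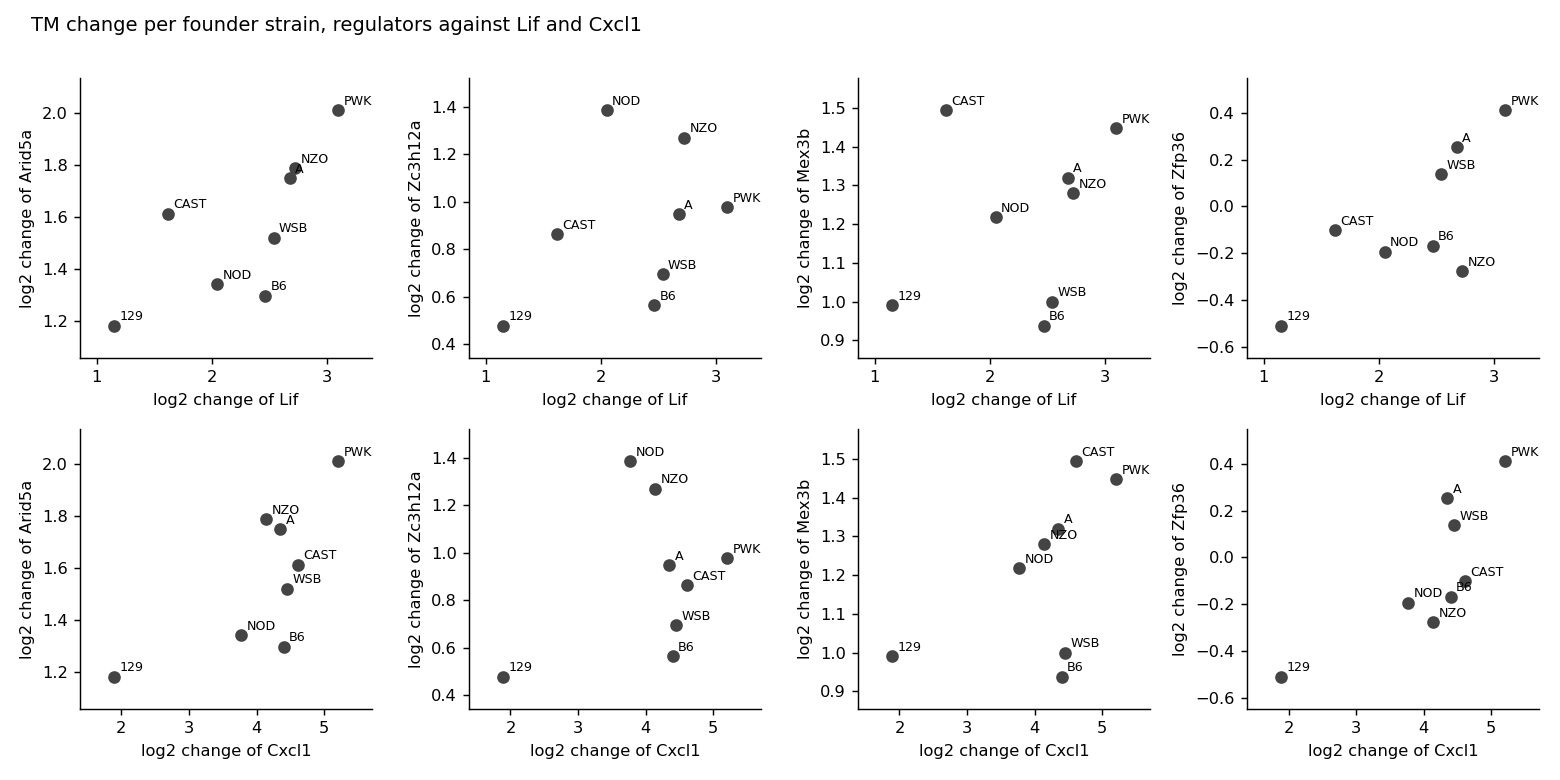
Mean log2 TM change of Arid5a, Zc3h12a, Mex3b and Zfp36 (y axes) against that of Lif (top) and Cxcl1 (bottom, x axes), with 1 point for each of the 8 founder strains. The strain 129 sits at the left of each panel and PWK at the right, and Arid5a against Lif has r = 0.73.

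The 5 crosses are too few for a correlation, and values are given for the crosses with the largest and smallest cytokine changes. xCAST had the largest changes of Cxcl1 (5.90), Lif (2.41), Zc3h12a (1.19) and Arid5a (1.63), although Arid5a was at no less than 1.36 in any cross. Mex3b was at 1.07 in xCAST, below x129 (1.21), xNZO (1.19) and xWSB (1.14). xWSB had the smallest changes of Cxcl1 (1.58, adjusted p = 0.068) and Lif (1.73) and the lowest value of Zfp36 (-0.54), yet Arid5a was at 1.51 and Zc3h12a at 0.94 there. The xWSB controls were the highest of the crosses for Cxcl1, at 9.96, 6.81 and 8.03 against 0.637 to 2.09 elsewhere.

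The genes whose change was most like that of a regulator, among 1511 called over the founders, were taken by Pearson r over the 22 founder TM libraries, which include differences between strains and between libraries of a strain. Nearest to Arid5a were Ppp1r15a, the ER stress phosphatase subunit GADD34 (r = 0.81), Myc (0.81) and Junb (0.80), both growth and stress transcription factors. Nearest to Zc3h12a were Nfkb1, a subunit of NF-kB (0.83), Zbtb21 (0.80) and Traf1, a signalling adaptor of TNF receptors (0.77). Nearest to Zfp36 were Ch25h, cholesterol 25-hydroxylase (0.83), Tmem154 (0.82) and the immediate early factor Egr1 (0.81). Of these 9, the founder changes ran from 0.63 for Zbtb21 to 1.92 for Ch25h.

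Of 30 mRNAs known as substrates of these regulators or of AU-rich decay, Lif and Cxcl1 included, 20 were called higher and 0 lower over the founders, with a median log2 change of 0.88 against -0.04 for all genes, of which 6.04% were called higher. Over the F1 crosses 14 of 27 were called higher and 0 lower, with a median of 0.60 against -0.04 for all genes, of which 4.95% were called higher. edgeR called 18 and 16 higher. The largest were the chemokine genes Cxcl2 (5.37, SE 0.17) and Ccl20 (4.91, SE 0.13), the growth factor gene Csf2 (4.18, SE 0.17) and Cxcl1 (4.10, SE 0.068). Il6, the classic substrate of Regnase-1 and Arid5a, was at 1.06 in the founders and 0.74 in the crosses, called in both. Of the 20 called over the founders, 16 had the TATTTAT heptamer, as did 3 of the 10 not called. Over the F1 crosses it was in 10 of the 14 called and 7 of the 13 not called. Among all founder genes it lay in 38.3% of those called higher and 28% of those not called. Among all F1 genes these shares were 35.8% and 28.3%. AU-rich decay was a reason for listing, and earlier results of these data were known. The counts for this list therefore describe it and are not a test.

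Of 36 deadenylation, decapping and exonuclease genes 1 was called higher, the antiproliferative deadenylase adaptor Btg2 (0.61, SE 0.039, adjusted p = 4.5e-14), and 0 lower, with an unadjusted p under 0.05 for 11 higher and 5 lower and the same counts called by edgeR. The all-gene shares were 6.04% higher and 5.41% lower. Of the 16 other family members and AU-rich element binders tested, 0 were called higher and 2 lower, the Mex3 paralogs above, with an unadjusted p under 0.05 for 3 higher and 4 lower. Of 15 kinases, phosphatases and proteases that act on the regulators, limma and edgeR called 0, with an unadjusted p under 0.05 for 3 higher and 8 lower. In the F1 crosses these lists held 1 call higher (Btg2, 0.61), 1 call lower (Mex3a) and, by limma and by edgeR, 0 calls for the kinases, phosphatases and proteases, with an unadjusted p under 0.05 for 3 higher and 5 lower. The all-gene shares in the F1 crosses were 4.95% called higher and 5.54% called lower.

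The 250 bases before the start of Arid5a are shown because that gene rose most. RefSeq promoters (GRCm38.p6, 250 bases before to 50 after the start) were found for 9 of the 10 genes, Zfp36l2 being the one without an entry. Capitals mark a match, on the minus strand at positions -165 to -157 from the start, to the C/EBP-ATF composite element TGATGNAAN, the kind of site ATF4 and CHOP bind as heterodimers with C/EBP proteins. It occurred in 3.95% of 32851 promoters on either strand and, among the 9 genes, in Arid5a alone.
Arid5a, chr1:36307483-36307732, plus strand: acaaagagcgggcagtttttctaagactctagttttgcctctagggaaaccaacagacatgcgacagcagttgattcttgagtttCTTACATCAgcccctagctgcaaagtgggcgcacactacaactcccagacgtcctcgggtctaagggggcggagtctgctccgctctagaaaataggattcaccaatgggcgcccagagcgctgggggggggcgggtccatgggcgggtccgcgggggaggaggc

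The kB motif, the site of NF-kB, matched in the windows of Cxcl1 and Lif, in 8.46% of all promoters and in no regulator. The ER stress elements ERSE (0.119% of promoters) and ERSE-II (0.0365%), the UPRE (TGACGTGG, 0.676%) and the CRE (TGACGTCA, 1.79%) matched in none of the 9 windows, and Zc3h12a matched none of the 8 motifs searched. No match says only that these letters are not in this window.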

How the data were processed

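The 68 libraries (40 founder, 28 F1) were TruSeq mRNA libraries of total RNA from MEF cultures. That kit does not mark strand, so reads of overlapping antisense genes could not be told apart. Per the study's methods, the authors used TopHat 1.4.1 against the genome sequence of each strain. They sequenced more than these 68 libraries and left out those that did not group with their condition. FastQC, Trimmomatic, edgeR, GRCm38 and mm10 are also named in the submitters' processing notes, without versions there. The deposited values, which the authors call FPKM, are a signal: in 66 of 68 libraries they are whole multiples of a single step for all genes, with 100% of values within 0.05 of a whole read, so these were taken as reads scaled by TMM with no division by gene length. In PWK TM replicate 2 and WSB TM replicate 1 the step, 0.101, could not be told from rounding of the values, and these were left out of the count test only. Lines that name no gene held 15.5% to 24.1% of the value of the F1 libraries and were left out. Depth was 6442976 to 29528457 reads on genes, and fewer reads give a low gene a wider counting error.

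Genes at 0.5 or more in at least 2 libraries of a comparison were tested with limma 3.58.1 (R 4.3.3, variance trend) on log2(value + 0.1), which understates changes of low genes. Founder and F1 sets were tested apart. Calls needed a Benjamini-Hochberg adjusted p under 0.01 over all genes tested and 1.5-fold. Strain and cross effects are moderated F tests on log2(TM / median control). Correlations used exact permutation of the 8 strains (scipy 1.17.1). edgeR 4.0.16 on recovered reads called 1439 genes in the founders (limma 1511, 1365 by both) and 1392 in the F1 crosses (limma 1343, 1265 by both). The other alternatives were another pseudocount, filter and scaling, no variance trend, a replicate block, an unmoderated F test, medians of libraries and leaving out each library. No 2 libraries agreed within sampling noise. Scripts were tested on simulated data, with Python 3.11.15, numpy 2.4.6, pandas 2.3.3 and matplotlib 3.10.9.

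The 3′UTR was that of the longest coding transcript of each gene in the GENCODE annotation of GRCm38, and promoters were from RefSeq (GRCm38.p6). The genes named are the 8 regulators, Lif, Cxcl1, up to 4 genes of each other list with the largest founder change among those called, and, for Arid5a, Zc3h12a and Zfp36, the 3 called genes most like each by r. Mex3c and Il6 were added after their values were seen. These members and lists were chosen with earlier results of these data known.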

Additional observations from a re-analysis of the deposited data

Results flagged for a closer look

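The TM change differed between the 8 founder strains for 2 regulators. Zc3h12a, the endonuclease Regnase-1, had adjusted p = 0.00138 in limma's moderated F test with the median control held fixed, with log2 changes from 0.48 in 129 to 1.39 in NOD. Arid5a, which counters it on cytokine mRNAs, had adjusted p = 0.00147, with log2 changes from 1.18 in 129 to 2.01 in PWK. The log2 changes of both genes are from the fits within each strain, which use all controls, and not the values of the F test. Against the median control, Arid5a was at 0.95, 1.41 and 1.17 in 129 and at 2.23, 2.10 and 2.10 in PWK. The limma interaction, which keeps the spread of the controls, gave adjusted p of 0.256 and 0.737, and the F test without TM replicate 3 gave 0.078 and 0.16. Groups held 2 or 3 libraries, too few to test single libraries as outliers.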

How the results depend on the processing

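Arid5a, Mex3b and Zc3h12a stayed called over the founders and over the F1 crosses under every alternative run, and when any 1 library was left out (3 to 3 calls in each set). Calls within genotypes depended more on the settings. Without a trend in the prior variance they went from 14 to 5 in the strains and from 9 to 4 in the crosses, and leaving out 1 library gave 11 to 17 and 7 to 10. The strain effect on the TM change went from 2 regulators to 0 in the strain by treatment interaction, to 0 in the interaction with the replicate block and to 0 with TM replicate 3 left out, and was 2 to 2 when 1 library was left out. The cause was not tested. Control levels differed between strains for 4 to 5 regulators when 1 library was left out and between crosses for 2 to 4, the 4 without xNZO control replicate 3. The cross effect and the correlations stayed at 0 to 0. Signs turned for 3 small changes, none of them called: Rc3h1 was at -0.00685 over the founders under the replicate block, and with TM replicate 3 left out Zfp36 was at 0.096 over the founders and Rc3h1 at 0.0025 over the F1 crosses.

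Of 29 pairs of same-numbered control and TM libraries 11 had deviations that correlated above 0.1 (r from -0.667 to 0.565, median 0.0133), so the numbers were not taken as pairs. The replicate block, which could not be fitted in B6 and CAST, gave 13 calls within the strains, losing Arid5a in A, and 9 within the crosses, 3 and 3 for the mean changes, 4 for control levels between strains and 3 between crosses. Calls within a genotype rested on 2 or 3 libraries a group, and leaving 1 out of 2 assumes that the remaining library varies like the others. With 1 library left out, Arid5a was called in 6 to 8 strains and 3 to 4 crosses and Mex3b in 3 to 5 strains and 2 to 3 crosses. Beyond these and the Zfp36l1 calls already given, the number of strains called went from 0 to 1 for Rc3h1 without CAST control replicate 3 and for Zfp36 without PWK TM replicate 3, and from 2 to 1 for Zc3h12a without NOD TM replicate 3. The number of crosses called went from 0 to 1 for Zfp36 without xNOD TM replicate 1 and for Elavl1 without xNOD TM replicate 2, and from 2 to 1 for Zc3h12a without x129 control replicate 1, xCAST control replicate 3 or xCAST TM replicate 1. Depth limited low genes most, and no regulator was near the filter. The Cxcl1 controls of B6, CAST and WSB were near it, at 0.506 to 0.882.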
